A study of Mus musculus with 15 samples.

Results

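The genes described here are those of respiratory complex I, the NADH:ubiquinone oxidoreductase of mitochondria. They were taken as the symbols that begin with Nduf followed by a, b, c, s or v and that had at least 100 reads over the 15 libraries. This gave 44 genes among 24421 in the count table: 35 subunits of the complex, 7 assembly factors (Ndufaf genes), and Ndufa4 with its paralog Ndufa4l2. Of the 45 symbols with such a name, the one left out was Ndufs5, with 2 reads in all. The RNA came from MAP cells, a single immortalized line of mouse adipocyte progenitors, which had been turned into adipocytes in culture. The 5 groups of 3 libraries were cells harvested 4 h (FSK4h), 1 day (FSK1D) and 3 days (FSK3D) into forskolin treatment, cells given rosiglitazone for 3 days (Rosi3D), and vehicle-treated cells. Forskolin activates adenylyl cyclase and so raises cAMP, and rosiglitazone is an agonist of the nuclear receptor PPARγ. Every group, vehicle included, had been differentiated for 2 days with insulin, isobutylmethylxanthine (a phosphodiesterase inhibitor), dexamethasone and 1 µM rosiglitazone and for 2 more days with insulin and rosiglitazone, and the treatments began at day 7 to 8. Vehicle cells had therefore met rosiglitazone before. Neither the doses of the later treatments nor the time of the vehicle harvest was stated in the labels.

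Complex I takes electrons from NADH, passes them through a flavin and a chain of iron-sulfur clusters to ubiquinone, and uses the energy released to pump protons across the inner mitochondrial membrane. It is built as an L. A matrix arm holds the redox centres on core subunits encoded in the nucleus, and a membrane arm holds the proton channels on core subunits encoded by mitochondrial DNA. Many accessory subunits surround this core, and assembly factors, which are not part of the finished enzyme, join its modules and are then released. In brown and beige fat the respiratory chain supplies the proton gradient that the uncoupling protein Ucp1 turns into heat, so mitochondria and their respiratory genes become more abundant when such cells form.

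Library totals ran from 14056200 counts (FSK3D library S11) to 56282582 counts (Rosi3D library S13). Counts of libraries within a group differed beyond sampling noise (chi-square divided by its degrees of freedom, 3.2 to 11.8), and in FSK3D library S12 stood apart from S10 and S11 (11.1 and 11.8, against 3.2 between S10 and S11). The counts of members called with FSK3D are therefore also given without S12. No label states whether libraries of a group are from different cultures, and the spread behind each p-value may thus be technical. All 10 adipocyte markers looked for exceeded a mean of 1 CPM in every group. Levels are in CPM, read counts per unit of library size after TMM scaling (trimmed mean of M values).

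The members differed widely in level. In vehicle libraries, on the scale of CPM divided by the deposited gene length in kilobases, their median was 37.6 CPM per kb. Of the 44, 22 lay within 2-fold of that median, 13 below that range and 9 above it. Ndufa4 was highest at 279.5 ± 8.06 CPM per kb (SD, n = 3), followed by Ndufb9, an accessory subunit that binds the acyl carrier protein, at 148 ± 7.29. The core subunit Ndufs7, at 111 ± 8.18, and the accessory subunit Ndufb8, at 109 ± 11.3 CPM per kb, were also high and differed by less than their spread. All 7 assembly factors lay below the median, between Ndufaf5 at 2.71 ± 0.352 and Ndufaf1 at 11.7 ± 0.515 CPM per kb. Ndufa4l2 was lowest, at 0.288 ± 0.215 CPM per kb. This order depends on the length used. With the longest annotated transcript, Ndufb9 was highest at 136.7 CPM per kb and Ndufa4 next at 111.6, and Ndufb8 went to place 19 instead of 5, Ndufb7 went to place 38 instead of 18, Ndufb2 to 40 instead of 23, and Ndufa11 to 20 instead of 35.

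**Figure D1:**
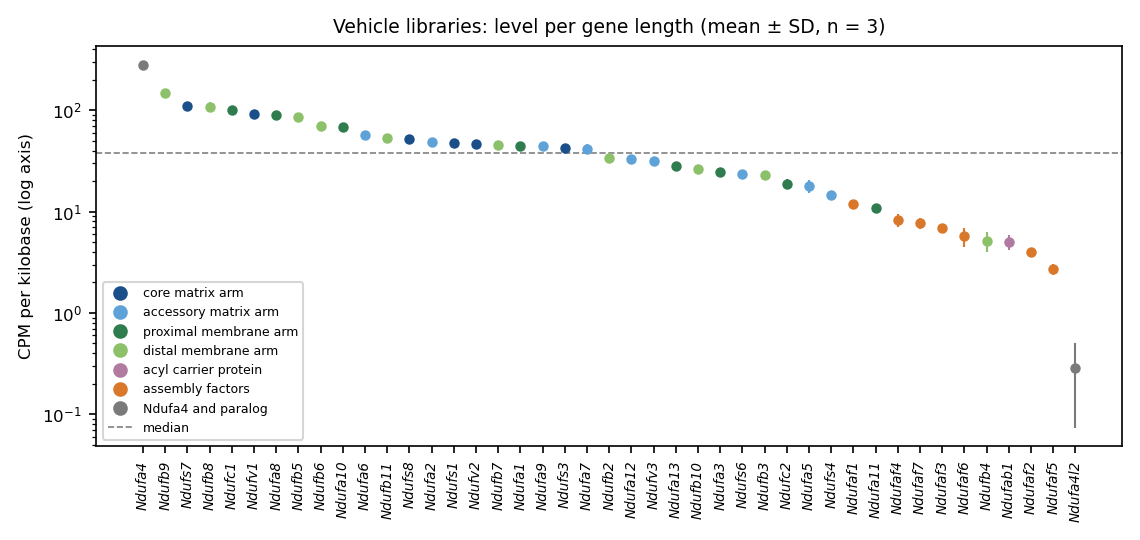
Level of the members reported in vehicle libraries, as CPM per kilobase on a log axis; points are means, bars SD (n = 3), colours the members' roles and the dashed line the median of 37.6 CPM per kb over all 44 members. Assembly factors, Ndufb4 and Ndufab1 gather at the low end and Ndufa4l2 lies lowest at 0.288 CPM per kb.

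Complex I genes were higher after 3 days of either agent, and higher after rosiglitazone than after forskolin, while at 4 h and 1 day of forskolin most of them were not called. In FSK3D, 38 of 44 members were called higher than in vehicle and 0 lower (adjusted p under 0.05, edgeR's quasi-likelihood test), where 52.9% of all tested genes were called in either direction, 25.9% higher and 27.0% lower. The median member was 1.34-fold higher in FSK3D, a log2 difference of 0.42, beside a median of 0.01 over all tested genes. In Rosi3D, 40 members were called higher and 0 lower, where 60.6% of all genes were called, 28.6% higher and 32.0% lower, and the median member was 1.92-fold higher (log2 0.94, beside -0.01 over all genes). The direct comparison of FSK3D with Rosi3D called 39 members lower and 0 higher in FSK3D, where 43.1% of all genes were called, 20.7% lower and 22.5% higher, with a median log2 difference of -0.52. FSK3D and Rosi3D were set against the same vehicle libraries. The time of the vehicle harvest was not stated, so these cells may have been older than vehicle cells. The part of culture age in the differences from vehicle was not tested.

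At the earlier times the picture was different. In FSK4h, 2 members were called higher and 5 lower, where 59.0% of all genes were called, 28.4% higher and 30.7% lower. In FSK1D, 2 were called higher and 4 lower, where 40.2% of all genes were called, 19.5% higher and 20.7% lower. The share of members called was thus below the share of all genes at both times, and their median log2 differences were 0.00 in FSK4h and -0.02 in FSK1D. Over the time course, 28 members were called against vehicle at 3 days, all higher, and not at 4 h or 1 day, beside 5.34% of all tested genes, and 5 were called at no time, beside 19.8% of all genes. Between the forskolin times, 39 members were called higher in FSK3D than in FSK1D and 0 lower, where 51.0% of all genes were called, 25.2% higher and 25.8% lower, with a median log2 difference of 0.45. FSK3D against FSK4h called 37 members higher and 2 lower, where 68.5% of all genes were called, 35.0% higher and 33.5% lower. Between FSK1D and FSK4h, 4 members were higher and 7 lower in FSK1D, where 57.3% of all genes were called, 28.4% higher and 28.9% lower. Treatments began in the same span of days in every group, so later harvests may be from older cultures. Time in forskolin and culture age thus cannot be told apart, and the part of age was not tested.

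The summed level of the 44 members shows the same steps. It was 1849 to 2004 CPM in vehicle libraries, 1942 to 2051 CPM in FSK4h, 1874 to 2042 CPM in FSK1D and 2598 to 2727 CPM in FSK3D. In Rosi3D it was 3729 to 4064 CPM. The vehicle, 4 h and 1 day libraries overlapped, and every FSK3D library lay above them and below every Rosi3D library. Single members followed this: the FSK3D and vehicle libraries did not overlap for 37 of 44 members, beside 58.5% of all genes, nor the Rosi3D and vehicle libraries for 40 members, beside 66.3% of all genes. Without library S12, 36 members were called higher in FSK3D than in vehicle (median log2 0.42), beside 3601 of 14640 genes. Then 37 members were lower in FSK3D than in Rosi3D (median -0.53), beside 2938 genes. Higher in FSK3D than in FSK1D were 36 members (median 0.43), beside 3268 genes. Against FSK4h, 38 members were then higher and 1 lower in FSK3D (median 0.43), beside 4697 and 4694 genes.

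The sum of 10 adipocyte markers, of which none was at 0, was, like that of the members, highest in Rosi3D and next highest in FSK3D. In FSK1D it lay below vehicle, where the members overlapped it. The sum was 8924 to 10310 CPM in vehicle, 9750 to 11290 CPM in FSK4h, 7227 to 7958 CPM in FSK1D and 15460 to 15760 CPM in FSK3D, and 20590 to 21940 CPM in Rosi3D. Single markers did not all follow it. Lpl averaged 8666 CPM in FSK3D and 7022 CPM in Rosi3D. Pparg averaged 295 CPM in FSK3D and 189 CPM in Rosi3D, against 197 CPM in vehicle. The others were highest in Rosi3D, Cebpa by little (434.2 CPM, against 432.5 CPM in FSK3D). In FSK1D Cidec averaged 397 CPM and Lipe 375 CPM, against 278 and 356 CPM in vehicle, while the others lay below vehicle. The 9 markers of progenitors and fibroblasts summed to 795 to 841 CPM in vehicle, 654 to 747 CPM in FSK4h, 963 to 998 CPM in FSK1D and 817 to 880 CPM in FSK3D, and 422 to 472 CPM in Rosi3D, with Dpp4 at 0 in the treated groups. These markers did not move as one. In FSK1D Ly6a averaged 431 CPM and Pdgfra 279 CPM, against 121 and 209 CPM in vehicle. There Pdgfrb averaged 209 CPM and Cd248 52.0 CPM, against 402 and 75.5 CPM in vehicle. The 4 markers of smooth muscle and myofibroblasts, all detected, summed to 253 to 262 CPM in vehicle, 186 to 203 CPM in FSK4h, 21.9 to 23.4 CPM in FSK1D and 56.5 to 65.8 CPM in FSK3D, and 53.0 to 53.4 CPM in Rosi3D. Acta2 was the largest part of each sum. Myh11 averaged 9.18 CPM in Rosi3D and 4.17 CPM in FSK3D, against 3.28 CPM in vehicle, while the other markers lay below vehicle in both. The part of these shifts in the complex I result was not tested. In RNA from a whole culture, fewer cells of a type and less RNA per cell cannot be told apart. Markers of macrophages summed to at most 5.58 CPM and those of endothelium to at most 9.23 CPM in any library. The 4 markers of skeletal muscle summed to 3.81 to 4.26 CPM in vehicle, 2.92 to 3.66 CPM in FSK4h, 0.995 to 1.53 CPM in FSK1D and 3.34 to 4.16 CPM in FSK3D, and 29.4 to 30.9 CPM in Rosi3D. Nearly all of this was the actin gene Acta1 (29.9 CPM in Rosi3D, against 4 CPM in vehicle), while in Rosi3D Myod1 and Ckm were at 0 and Myog at 0.0867 CPM, and its part in the result was not tested. The ribosomal RNA precursor Rn45s took on average 8.53% of counts in vehicle, 8.68% in FSK4h, 7.6% in FSK1D and 4.78% in FSK3D, and 6.63% in Rosi3D, and its part was not tested either.

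**Figure D2:**
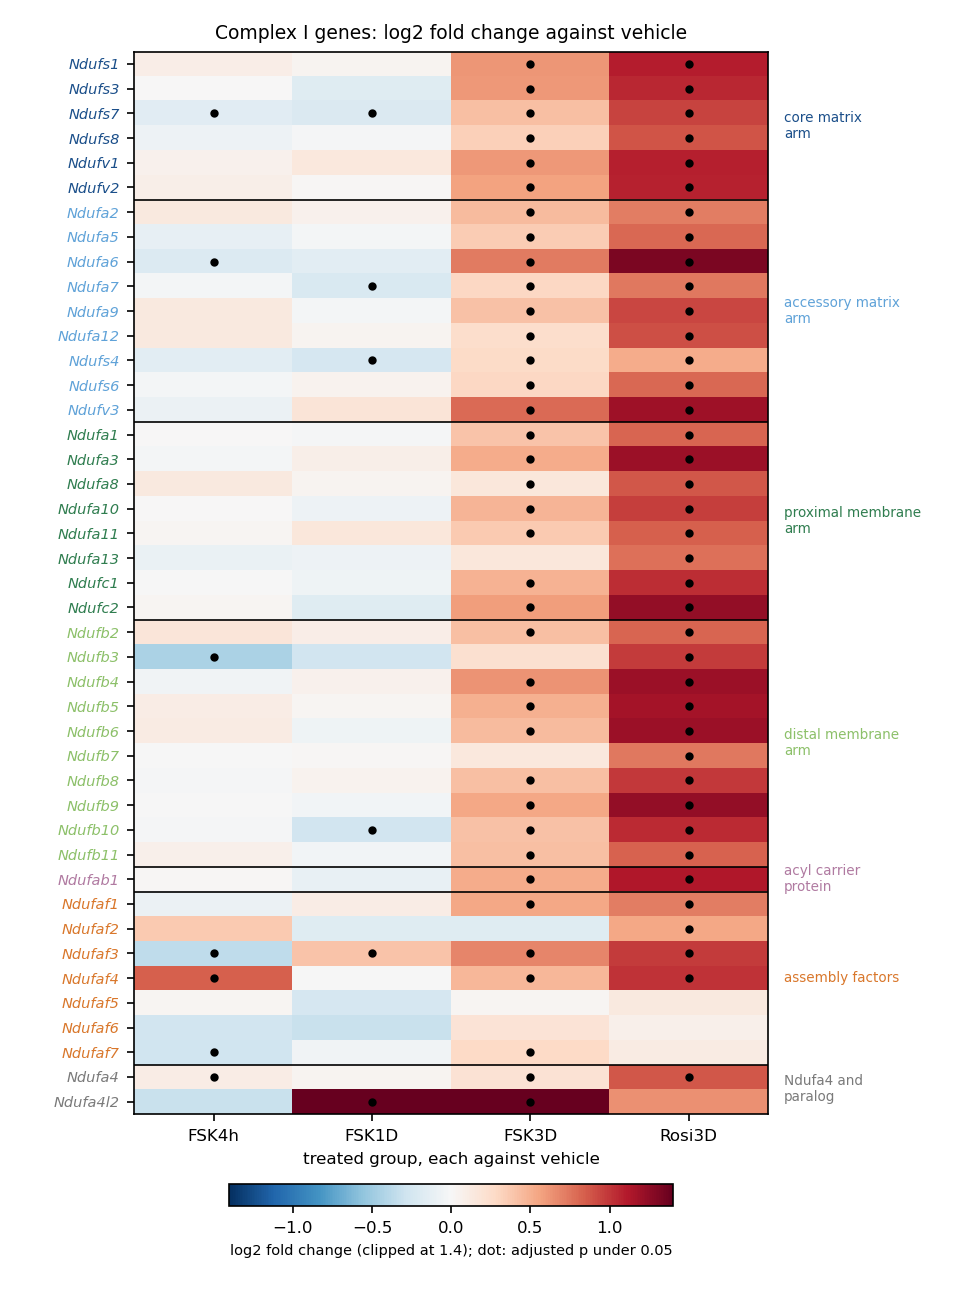
Log2 fold change of the members reported (rows, grouped by role) in each treated group against vehicle; colours are clipped at 1.4 and a dot marks an adjusted p under 0.05 (edgeR). The FSK4h and FSK1D columns are mostly pale, with 7 and 6 dots, and the FSK3D and Rosi3D columns are mostly red, with dots in most cells.

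The core subunits of the matrix arm, which carry the flavin and the iron-sulfur clusters, were called higher after 3 days in 7 of 7 cases with each agent. Their log2 differences from vehicle were 0.33 to 0.62 in FSK3D (median 0.56) and 0.88 to 1.10 in Rosi3D (median 1.08). Of all genes, 25.9% were called higher in FSK3D and 28.6% in Rosi3D. Ndufv1, which binds NADH and the flavin, had 217, 213 and 241 CPM in FSK3D and 303, 295 and 340 CPM in Rosi3D, against 137, 156 and 147 CPM in vehicle. Its log2 difference from vehicle was 0.61 ± 0.061 (SE) in FSK3D (adjusted p = 2.75e-09) and 1.09 ± 0.061 in Rosi3D (adjusted p = 9.74e-15). The 3 groups did not overlap. Ndufs1, which holds iron-sulfur clusters next to Ndufv1, had 219, 211 and 216 CPM in FSK3D and 287, 285 and 328 CPM in Rosi3D, against 134, 146 and 141 CPM in vehicle. Its difference was 0.62 ± 0.051 in FSK3D (adjusted p = 2.91e-12) and 1.09 ± 0.051 in Rosi3D (adjusted p = 3.75e-19). Ndufv2, an iron-sulfur subunit of the same NADH-binding end, had 113, 111 and 109 CPM in FSK3D and 150, 160 and 170 CPM in Rosi3D, against 71.2, 77.7 and 77.0 CPM in vehicle, a difference of 0.56 ± 0.053 in FSK3D (adjusted p = 6.67e-11) and 1.08 ± 0.053 in Rosi3D (adjusted p = 1.16e-18). For both genes the Rosi3D libraries were highest and the FSK3D libraries stood between them and vehicle.

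Ndufs3 and Ndufs8 rose too. Ndufs3, an early building block of the arm, had 58.5, 58.0 and 64.2 CPM in FSK3D and 80.7, 73.7 and 91.6 CPM in Rosi3D, against 41.7, 40.3 and 36.4 CPM in vehicle, with differences of 0.61 ± 0.072 (adjusted p = 8.00e-09) in FSK3D and 1.05 ± 0.070 (adjusted p = 7.29e-15) in Rosi3D. Again no group overlapped another. Ndufs8, which carries iron-sulfur clusters of the chain, moved least of the core subunits: it had 62.6, 67.9 and 70.9 CPM in FSK3D and 95.7, 96.8 and 103 CPM in Rosi3D, against 50.6, 53.6 and 56.2 CPM in vehicle, differences of 0.33 ± 0.056 (adjusted p = 6.92e-06) in FSK3D and 0.88 ± 0.055 (adjusted p = 9.75e-16) in Rosi3D.

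Ndufs7, which holds the last iron-sulfur cluster before ubiquinone, was the core subunit called at the early times. It had 78.1, 90.4 and 83.4 CPM in vehicle, 72.8, 80.3 and 71.8 CPM in FSK4h, 67.8, 77.7 and 74.1 CPM in FSK1D and 105, 111 and 120 CPM in FSK3D. It had 165, 164 and 155 CPM in Rosi3D. The 4 h libraries overlapped those of vehicle, the 1 day libraries lay just below vehicle, and the 3 day libraries lay above both. Against vehicle the log2 difference was -0.16 ± 0.060 in FSK4h (adjusted p = 0.02), -0.20 ± 0.061 in FSK1D (adjusted p = 0.00869), 0.42 ± 0.060 in FSK3D (adjusted p = 3.97e-07) and 0.94 ± 0.059 in Rosi3D (adjusted p = 2.43e-15). Both early calls were lost when 1 of several libraries was left out. Without vehicle library S2 the difference was -0.09 in FSK4h (adjusted p = 0.237) and -0.12 in FSK1D (adjusted p = 0.150). Leaving out FSK4h S4 or S6 also ended the 4 h call (adjusted p = 0.114 and 0.144), and leaving out FSK1D S7 the 1 day call (adjusted p = 0.143). With DESeq2 and with thinned counts the 4 h call ended too (adjusted p = 0.0643 and 0.0913).

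**Figure D3:**
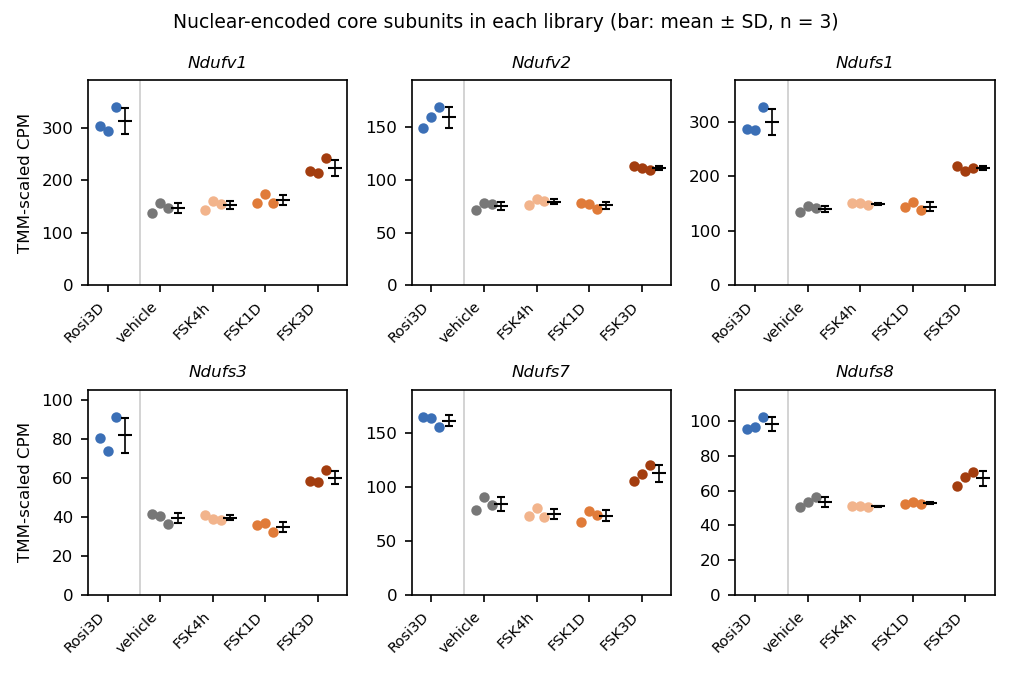
Nuclear-encoded core subunits of the matrix arm in each library as TMM-scaled CPM (one panel per gene, axes from 0; points are libraries, bars mean ± SD, n = 3). In each panel vehicle, FSK4h and FSK1D lie close together, FSK3D lies higher and Rosi3D highest, for example 303, 295 and 340 CPM for Ndufv1 in Rosi3D.

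Among the 9 accessory subunits of the matrix arm, 9 were called higher in FSK3D (median log2 0.35) and 9 in Rosi3D (median 0.80). Of all genes, 25.9% and 28.6% were called higher. Ndufv3, a small subunit of the NADH-binding end, was the subunit with the largest difference in FSK3D. It had 80.7, 77.0 and 97.5 CPM in FSK3D and 110, 111 and 116 CPM in Rosi3D, against 48.02, 49.99 and 49.9 CPM in vehicle, log2 differences of 0.79 ± 0.088 (adjusted p = 2.30e-07) in FSK3D and 1.19 ± 0.087 (adjusted p = 2.98e-10) in Rosi3D. Ndufa6, which docks an acyl carrier protein on the matrix arm, had the largest difference of any member in Rosi3D: 52.9, 51.0 and 53.5 CPM in FSK3D and 81.0, 67.7 and 88.6 CPM in Rosi3D, against 28.9, 35.0 and 31.5 CPM in vehicle. That is 1.65-fold in FSK3D (log2 0.73 ± 0.083, adjusted p = 1.29e-08) and 2.49-fold in Rosi3D (log2 1.32 ± 0.081, adjusted p = 1.13e-14). For both genes each FSK3D and Rosi3D library lay above every vehicle library.

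At the other end of the range stood Ndufs4, a late-joining accessory subunit whose loss causes Leigh syndrome in humans and a like disease in mice. It had 24.4, 28.4 and 28.9 CPM in FSK3D and 31.6, 29.9 and 35.1 CPM in Rosi3D, against 21.0, 23.3 and 23.2 CPM in vehicle. Its log2 difference was 0.27 ± 0.088 in FSK3D (adjusted p = 0.00921) and 0.52 ± 0.085 in Rosi3D (adjusted p = 3.08e-06), the smallest among the 35 subunits in Rosi3D. Without FSK3D S12 its difference in FSK3D was 0.22 (adjusted p = 0.0571). Ndufa12, at a log2 difference of 0.25 ± 0.082 in FSK3D, was not called without vehicle S1 (adjusted p = 0.0548). The remaining matrix accessory subunits, Ndufa2, Ndufa5, Ndufa7, Ndufa9 and Ndufs6, differed from vehicle by log2 0.29 to 0.45 in FSK3D and 0.71 to 0.94 in Rosi3D.

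The accessory subunits of the membrane arm were described by the part of the arm on which they sit. On the proximal part, next to the matrix arm, 7 of 8 measured subunits were called higher in FSK3D (median log2 0.44) and 8 of 8 in Rosi3D (median 0.92). Among all genes these shares were 25.9% and 28.6%. Ndufc2, which stands at the foot of the arm, had 20.3, 18.2 and 19.1 CPM in FSK3D and 28.8, 28.4 and 33.2 CPM in Rosi3D, against 11.4, 13.6 and 13.6 CPM in vehicle. Its log2 differences were 0.59 ± 0.12 (adjusted p = 0.000105) in FSK3D and 1.23 ± 0.11 (adjusted p = 9.47e-11) in Rosi3D, with no overlap of groups. Ndufa13, also known as GRIM-19, was the proximal subunit not called in FSK3D: it had 38.95, 39.2 and 38.65 CPM in FSK3D and 56.3, 59.4 and 63.1 CPM in Rosi3D, against 36.3, 33.02 and 35.44 CPM in vehicle. Its log2 difference in FSK3D was 0.16 with an interval of 0.01 to 0.30 at 2 SE (adjusted p = 0.0665), although its libraries did not overlap those of vehicle. It was called with a 1 CPM filter (adjusted p = 0.0406), halved counts (0.0422) and without vehicle S1 (0.0432). In Rosi3D it was 0.77 ± 0.069 (adjusted p = 1.08e-11). Ndufa8, a proximal subunit facing the intermembrane space, was called in FSK3D at 0.16 ± 0.065 (adjusted p = 0.0381), with libraries at 69.8, 73.9 and 79.5 CPM in FSK3D that overlapped 61.7, 67.1 and 71.5 CPM in vehicle. That call ended without FSK3D S12 (adjusted p = 0.196), vehicle S1 (0.168) or vehicle S2 (0.0552).

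On the distal part of the membrane arm, 8 of 10 measured subunits were called higher in FSK3D (median log2 0.42) and 10 of 10 in Rosi3D (median 1.01). Among all genes these shares were 25.9% and 28.6%. Ndufb9, which anchors a second acyl carrier protein, had 143, 137 and 140 CPM in FSK3D and 221, 219 and 235 CPM in Rosi3D, against 91.8, 101 and 95.7 CPM in vehicle, log2 differences of 0.54 ± 0.050 (adjusted p = 4.03e-11) in FSK3D and 1.23 ± 0.049 (adjusted p = 8.25e-21) in Rosi3D. Ndufb6 had 52.6, 51.0 and 49.0 CPM in FSK3D and 80.1, 83.9 and 93.5 CPM in Rosi3D, against 36.85, 36.54 and 38.96 CPM in vehicle, or 0.44 ± 0.066 (adjusted p = 8.03e-07) and 1.20 ± 0.064 (adjusted p = 1.61e-17). In both genes the groups were apart, with Rosi3D highest. Ndufb3 had 12.97, 13.02 and 16.16 CPM in FSK3D and 23.0, 22.7 and 26.3 CPM in Rosi3D, against 11.1, 12.9 and 12.4 CPM in vehicle. It was not called in FSK3D, where its log2 difference of 0.22 had an interval of -0.01 to 0.46 at 2 SE (adjusted p = 0.104), and it was called in Rosi3D at 0.98 ± 0.11 (adjusted p = 1.81e-09). Ndufb7, likewise not called in FSK3D, had 25.9, 27.8 and 27.6 CPM in FSK3D and 42.6, 38.6 and 40.2 CPM in Rosi3D, against 23.3, 23.2 and 26.6 CPM in vehicle. Without vehicle S3 it was called in FSK3D (log2 0.23, adjusted p = 0.0287).

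Ndufb4 and Ndufab1 were the least abundant subunits. Ndufab1, the mitochondrial acyl carrier protein, sits on both arms through Ndufa6 and Ndufb9 and also serves lipoic acid synthesis. It had 5.79, 5.28 and 6.17 CPM in FSK3D and 8.88, 9.76 and 7.63 CPM in Rosi3D, against 4.75, 3.74 and 3.56 CPM in vehicle, log2 differences of 0.52 ± 0.16 (adjusted p = 0.00583) in FSK3D and 1.12 ± 0.15 (adjusted p = 7.20e-08) in Rosi3D. After thinning to the smallest library Ndufab1 was not called in FSK3D (0.38, adjusted p = 0.0875). Ndufb4 had 4.04, 4.73 and 2.51 CPM in FSK3D and 5.68, 5.90 and 4.55 CPM in Rosi3D, against 2.47, 2.79 and 1.76 CPM in vehicle. For Ndufb4 the lowest FSK3D library, at 2.51 CPM, lay within the vehicle values, and the others lay above them. Its call in FSK3D at 0.63 ± 0.23 (adjusted p = 0.0199) was lost without FSK3D S10 (adjusted p = 0.0820), FSK3D S11 (0.107) or vehicle S3 (0.106).

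Set directly against each other, FSK3D lay below Rosi3D for 35 of 35 subunits, by log2 -0.24 to -0.76. The core subunits described above differed by -0.44 to -0.55 and the distal membrane subunits by a median of -0.61. The largest differences were those of Ndufb3 at -0.76 ± 0.11 (adjusted p = 7.99e-07), Ndufb6 at -0.75 ± 0.064 (adjusted p = 5.95e-12) and the assembly factor Ndufaf2 at -0.72 ± 0.21 (adjusted p = 0.00552), the last of which is described further with the assembly factors. Ndufs4 had the smallest subunit difference, -0.24 ± 0.086 (adjusted p = 0.0211), and without FSK3D S10 or Rosi3D S15 it was not called (adjusted p = 0.167 and 0.125). The call of Ndufb4, at -0.56 ± 0.21 (adjusted p = 0.0299), was lost without FSK3D S12 (adjusted p = 0.265), Rosi3D S13 (0.102) or Rosi3D S14 (0.0830), and that of Ndufaf2 without FSK3D S12 (0.0675). In all, 35 members were higher than vehicle with both agents and lower in FSK3D than in Rosi3D, beside 6.86% of all genes. Another 4 (Ndufa13, Ndufb3, Ndufb7 and Ndufaf2) were called higher than vehicle in Rosi3D but not in FSK3D and lower in FSK3D than in Rosi3D, beside 6.14% of all genes. The difference between FSK3D and Rosi3D was called and at least 1.5-fold for 16 members and at least 2-fold for 0, whereas against vehicle 17 members reached 2-fold in Rosi3D and 1 (Ndufa4l2) in FSK3D. The shares of all genes past these folds were not worked out.

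**Figure D4:**
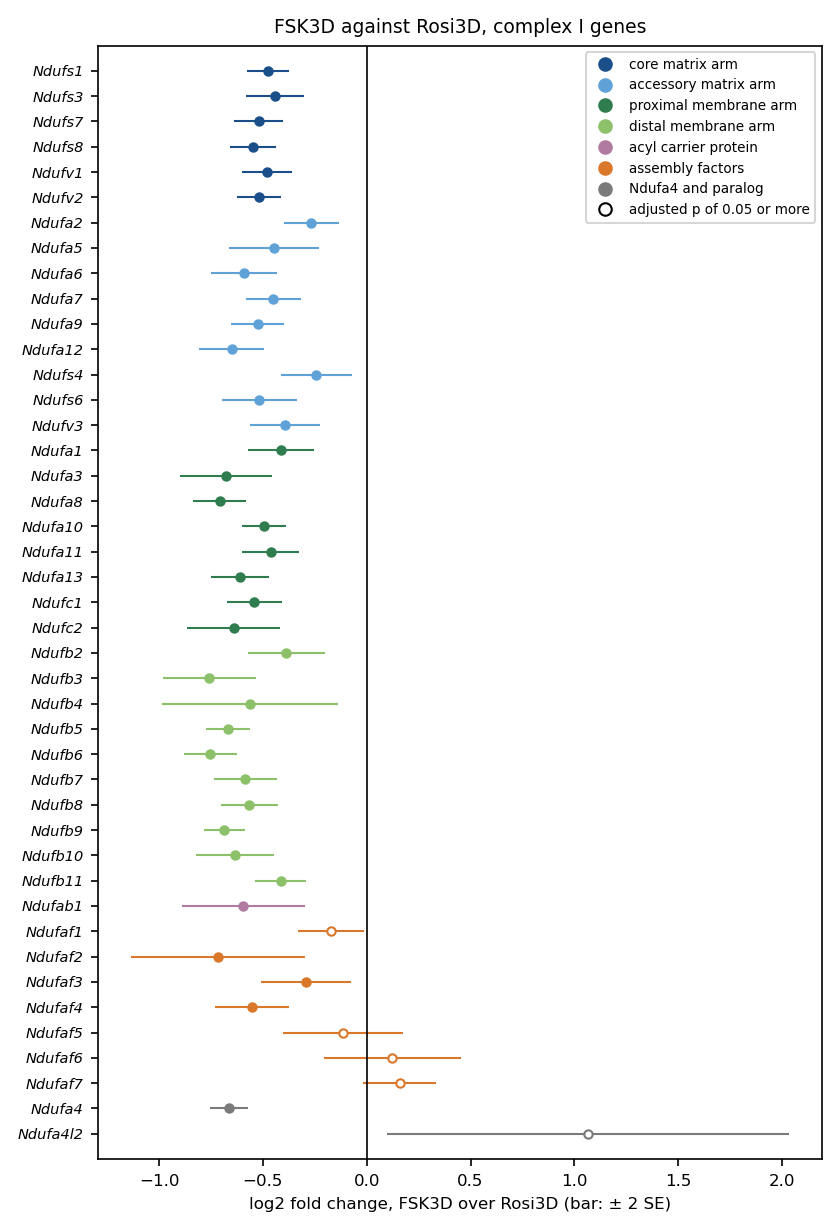
Log2 fold change of the members reported in FSK3D over Rosi3D, with bars of 2 SE either way; open points had an adjusted p of 0.05 or more (edgeR). The subunits shown all lie left of 0, between -0.24 and -0.76, while 4 of 7 assembly factors and Ndufa4l2 are open.

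At 4 h of forskolin, beside 28.4% of all genes called higher and 30.7% lower, 0 of 35 subunits were called higher and 3 lower. Other settings did call some higher, by log2 0.10 to 0.16: Ndufs1, Ndufa2, Ndufa8, Ndufa9 and Ndufb5 with RLE factors, Ndufa2, Ndufa8 and Ndufa9 with DESeq2, Ndufs1, Ndufa8 and Ndufa9 with the 2 groups alone, Ndufa8 and Ndufa9 with no filter, and Ndufa8 with halved counts. Ndufb3 had 8.25, 10.6 and 8.07 CPM in FSK4h, against 11.1, 12.9 and 12.4 CPM in vehicle, a log2 difference of -0.44 ± 0.12 (adjusted p = 0.00178) with no overlap. Ndufa6 had 26.3, 29.9 and 27.3 CPM in FSK4h, against 28.9, 35.0 and 31.5 CPM in vehicle, or -0.19 ± 0.084 (adjusted p = 0.0492). These libraries overlapped, and the call of Ndufa6 ended when any of FSK4h S4 or S6 or vehicle S2 or S3 was left out, with adjusted p between 0.0889 and 0.334. It also ended with RLE factors, a 1 CPM filter, DESeq2, halved counts and thinned counts (adjusted p between 0.0527 and 0.26). The third was Ndufs7, described above. The size of these early differences depends on scaling: FSK4h libraries had TMM factors of 0.907 on average, against 1.04 in vehicle, and with library size alone as the scale the median of all genes in FSK4h moved from -0.03 to -0.23, that of the members to -0.20, and 24 members were called lower and 1 higher, beside 6708 of 14421 genes lower and 2519 higher under that scale.

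At 1 day of forskolin, beside 40.2% of all genes called and 20.7% lower, 4 of 35 subunits were called, all of them lower. This held less well under other processing. Ndufv1 was called higher with RLE factors, DESeq2, a 1 CPM filter, no filter, the 2 groups alone, halved counts and thinned counts (log2 0.16 to 0.17, adjusted p between 0.00839 and 0.0414). Ndufa11 or Ndufv3 was called higher beside it under each of these, such as Ndufa11 with RLE factors (adjusted p = 0.0377) and Ndufv3 with no filter (adjusted p = 0.00714). Ndufb10, on the distal membrane arm, had 13.57, 15.52 and 12.98 CPM in FSK1D, against 15.7, 18.2 and 16.8 CPM in vehicle, a log2 difference of -0.27 ± 0.10 (adjusted p = 0.0320). Ndufs4 had 17.7, 21.3 and 18.3 CPM in FSK1D, against 21.0, 23.3 and 23.2 CPM in vehicle, or -0.24 ± 0.089 (adjusted p = 0.0320). The FSK1D libraries of Ndufb10 lay below those of vehicle, and those of Ndufs4 overlapped them. Ndufa7, on the matrix arm, had 41.7, 43.6 and 43.7 CPM in FSK1D, against 44.3, 54.9 and 50.5 CPM in vehicle, or -0.21 ± 0.068 (adjusted p = 0.0118). The fourth was Ndufs7. Without vehicle S2 none of these 4 was called (adjusted p of 0.150 for Ndufs7, 0.144 for Ndufs4, 0.200 for Ndufb10 and 0.208 for Ndufa7), and likewise without FSK1D S7 (0.143, 0.216, 0.134 and 0.0875 in the same order). Leaving out vehicle S3 ended the calls of Ndufs4, Ndufb10 and Ndufa7 (0.124, 0.0757 and 0.0547), and FSK1D S9 those of Ndufs4 and Ndufb10 (0.152 and 0.185). The calls of Ndufs4 and Ndufb10 also ended with RLE factors (0.0534 and 0.0502) and with DESeq2 (0.0583 and 0.0536). That of Ndufb10 ended after thinning as well (0.0835).

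The 7 assembly factors did not move as one. In FSK3D 4 were called higher (Ndufaf1, Ndufaf3, Ndufaf4 and Ndufaf7) and 0 lower, with a median log2 difference of 0.28. In Rosi3D 4 were called higher (Ndufaf1, Ndufaf2, Ndufaf3 and Ndufaf4) and 0 lower, with a median of 0.54. At 4 h Ndufaf4 was called higher and Ndufaf3 and Ndufaf7 lower, and at 1 day Ndufaf3 was called higher. Of all genes, 59.0% were called at 4 h and 40.2% at 1 day, larger shares than of the 7 factors. Called higher at 3 days were 25.9% of all genes in FSK3D and 28.6% in Rosi3D.

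Ndufaf4, which works with Ndufaf3 on the ubiquinone-binding module, had the largest difference from vehicle at 4 h. It had 25.1, 30.6 and 33.9 CPM in vehicle, 49.3, 58.9 and 51.4 CPM in FSK4h, 32.6, 27.7 and 28.9 CPM in FSK1D and 41.0, 43.0 and 39.4 CPM in FSK3D. In Rosi3D it had 57.9, 57.2 and 65.9 CPM. All 4 h libraries lay above all those of vehicle, 1 day and 3 days, and the 1 day libraries overlapped vehicle. The difference from vehicle was 1.78-fold in FSK4h (log2 0.83 ± 0.090, adjusted p = 1.80e-08), -0.01 ± 0.093 in FSK1D (adjusted p = 0.971), 0.46 ± 0.092 in FSK3D (adjusted p = 0.000171) and 1.01 ± 0.090 in Rosi3D (adjusted p = 3.94e-10). Between the times, FSK1D lay below FSK4h by log2 -0.84 ± 0.091 (adjusted p = 2.08e-08).

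Ndufaf3 took the opposite course at 4 h. It had 7.22, 7.25 and 7.71 CPM in vehicle, 5.47, 6.59 and 5.33 CPM in FSK4h, 9.75, 9.96 and 9.42 CPM in FSK1D and 11.9, 10.3 and 13.1 CPM in FSK3D. In Rosi3D it had 14.76, 13.89 and 14.99 CPM. The 4 h libraries lay below vehicle and the 1 day and 3 day libraries above it. The log2 difference from vehicle was -0.36 ± 0.12 in FSK4h (adjusted p = 0.0112), 0.39 ± 0.12 in FSK1D (adjusted p = 0.00589), 0.69 ± 0.12 in FSK3D (adjusted p = 5.08e-06) and 0.98 ± 0.11 in Rosi3D (adjusted p = 2.10e-09). The 4 h call was lost without FSK4h S4 (adjusted p = 0.0645) or S6 (0.0707), and after thinning (0.146). In FSK3D against Rosi3D it was -0.29 ± 0.11 (adjusted p = 0.0288), a call lost without FSK3D S10 or S11 or Rosi3D S13 or S15 (adjusted p between 0.0694 and 0.134).

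Ndufaf1, a member of the assembly complex that builds the membrane arm, had 25.08, 24.47 and 24.97 CPM in FSK3D and 26.3, 28.7 and 29.3 CPM in Rosi3D, against 17.8, 16.9 and 16.4 CPM in vehicle. It rose by log2 0.54 ± 0.081 in FSK3D (adjusted p = 7.16e-07) and 0.72 ± 0.079 in Rosi3D (adjusted p = 1.15e-09), and the difference between FSK3D and Rosi3D, -0.17 with an interval of -0.33 to -0.02 at 2 SE, was not called (adjusted p = 0.0759), but it was after thinning (-0.26, adjusted p = 0.0164) and without Rosi3D S13 (-0.23, adjusted p = 0.0457). Ndufaf7, a methyltransferase that acts during assembly of the matrix arm, was the one factor called in FSK3D but not in Rosi3D. It had 14.82, 15.05 and 13.98 CPM in FSK4h, 21.4, 22.0 and 21.1 CPM in FSK3D and 18.6, 19.6 and 19.7 CPM in Rosi3D, against 19.8, 15.2 and 18.3 CPM in vehicle. Its vehicle libraries were spread widely, between the FSK4h and FSK3D values. The log2 difference was -0.28 ± 0.089 in FSK4h (adjusted p = 0.00756), 0.28 ± 0.089 in FSK3D (adjusted p = 0.00878) and 0.12 ± 0.087 in Rosi3D (adjusted p = 0.246; called at 0.22 without vehicle S1, adjusted p = 0.0458), and FSK3D against Rosi3D was not called (0.16 ± 0.088, adjusted p = 0.152). The 4 h call ended without vehicle S1 (adjusted p = 0.110) or FSK4h S6 (0.0507), and the 3 day call without vehicle S2 (0.0953).

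Ndufaf2, a relative of the subunit Ndufa12 that helps to attach the NADH-binding module, had 2.57, 3.08 and 1.88 CPM in FSK3D and 3.55, 3.62 and 4.91 CPM in Rosi3D, against 2.93, 2.73 and 2.57 CPM in vehicle. It was called in Rosi3D at log2 0.54 ± 0.20 (adjusted p = 0.0185), a call lost without Rosi3D S15 (adjusted p = 0.119). In FSK3D it stood at -0.17 with an interval of -0.61 to 0.26 at 2 SE (adjusted p = 0.521). Ndufaf5, which hydroxylates the core subunit Ndufs7, and Ndufaf6, needed for the mitochondrially encoded part of the membrane arm, were called in none of the comparisons with vehicle. Ndufaf5 had 7.83, 6.17 and 8.33 CPM in FSK3D and 7.27, 8.88 and 8.68 CPM in Rosi3D, against 7.07, 8.50 and 6.68 CPM in vehicle. Ndufaf6 had 7.06, 7.33 and 6.84 CPM in FSK3D and 5.93, 5.58 and 7.98 CPM in Rosi3D, against 4.91, 6.07 and 7.56 CPM in vehicle. Their groups overlapped, and the intervals at 2 SE in Rosi3D ran from -0.14 to 0.43 for Ndufaf5 and from -0.25 to 0.40 for Ndufaf6. No test set these differences against those of the subunits.

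**Figure D5:**
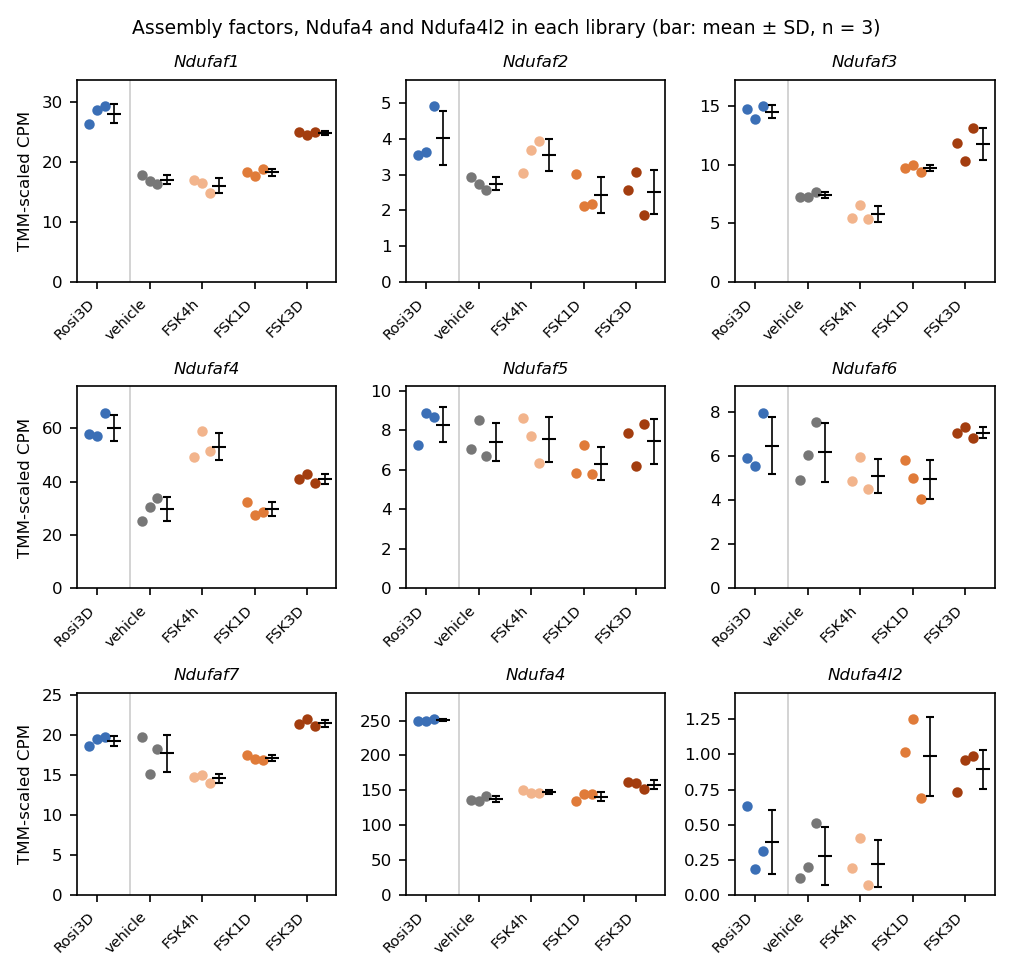
Assembly factors, Ndufa4 and Ndufa4l2 in each library as TMM-scaled CPM (one panel per gene, axes from 0; points are libraries, bars mean ± SD, n = 3). Ndufaf4 is high in FSK4h (49.3 to 58.9 CPM) and Ndufaf3 low there (5.33 to 6.59 CPM), while the groups overlap for Ndufaf5.

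Ndufa4 bears a complex I name but is now assigned to complex IV, cytochrome c oxidase. It had 151, 146 and 147 CPM in FSK4h, 162, 161 and 151 CPM in FSK3D and 250, 250 and 252 CPM in Rosi3D, against 136, 135 and 142 CPM in vehicle. Log2 differences were 0.11 ± 0.045 in FSK4h (adjusted p = 0.0413), 0.20 ± 0.045 in FSK3D (adjusted p = 0.000325) and 0.86 ± 0.045 in Rosi3D (adjusted p = 6.42e-18). The 4 h libraries lay just above vehicle, and that call ended without vehicle S1 (adjusted p = 0.0800), vehicle S2 (0.0780) or FSK4h S4 (0.0875). It also ended with no filter (0.0627). With library size alone as the scale its sign in FSK4h turned (-0.09).

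Ndufa4l2, the paralog of Ndufa4 known as a target of hypoxia-inducible factor, was barely detected. Its raw counts were 28, 33 and 18 in FSK1D and 18, 14 and 31 in FSK3D, against 4, 6 and 14 in vehicle. In FSK4h they were 7, 10 and 2, and in Rosi3D 36, 4 and 8. As CPM, the FSK1D libraries at 0.689 to 1.25 and the FSK3D libraries at 0.734 to 0.986 lay above the vehicle libraries at 0.124 to 0.514. The log2 difference was 1.85 ± 0.51 in FSK1D (adjusted p = 0.00374) and 1.71 ± 0.53 in FSK3D (adjusted p = 0.00670), the largest of any member in each of these comparisons. Without vehicle S1 the FSK3D call was lost (adjusted p = 0.0525). In Rosi3D it was not called, at 0.64 with an interval of -0.46 to 1.74 at 2 SE (adjusted p = 0.324), and neither was FSK3D against Rosi3D (1.07 ± 0.48, adjusted p = 0.0740). That difference was called without Rosi3D S13 (1.80, adjusted p = 0.0229) and with the 2 groups alone (1.05, adjusted p = 0.0482).

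Of 17 complex I genes with symbols of another form, 8 were in the count table, all of them assembly factors. The others, Coa1, Dmac1 and the 7 mitochondrially encoded subunits, were not found under the symbols searched and were not analysed. Ndufaf8, which was not among the 17, was there under an earlier symbol. Ndufaf8 apart, all 8 were called higher in FSK3D (median log2 0.47) and in Rosi3D (median 0.48), beside 25.9% and 28.6% of all genes. Foxred1, a flavin-dependent oxidoreductase, differed by 0.64 ± 0.076 in FSK3D and 0.95 ± 0.075 in Rosi3D, and Ecsit, a partner of Ndufaf1, by 0.52 ± 0.075 and 0.71 ± 0.074. Acad9, another partner of Ndufaf1 and a relative of the acyl-CoA dehydrogenases, averaged 94.0 ± 5.24 CPM in FSK3D and 80.4 ± 1.57 CPM in Rosi3D, against 69.3 ± 3.07 CPM in vehicle (SD, n = 3), and was the one of the 8 that was called higher in FSK3D than in Rosi3D (log2 0.23 ± 0.055). Tmem126b, from the same assembly complex, averaged 6.02 ± 0.538 CPM in FSK4h, against 10.8 ± 0.361 CPM in vehicle, and was called lower there (log2 -0.84). Ndufaf8, listed under its earlier symbol 1810043H04Rik, averaged 7.17 ± 0.248 CPM in Rosi3D, against 4.55 ± 0.835 CPM in vehicle (log2 0.66 ± 0.16), and was not called in FSK3D (-0.06 ± 0.18).

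The nuclear genes of complexes II to V were also mostly called at 3 days. Of 45 tested, 38 were called higher and 1 lower in FSK3D (median log2 0.45), 44 higher and 0 lower in Rosi3D (median 1.03), and 42 lower and 0 higher in FSK3D than in Rosi3D (median -0.58). Of all genes, 25.9% were higher in FSK3D, 28.6% higher in Rosi3D and 20.7% lower in FSK3D than in Rosi3D. At 4 h, 17 of the 45 were called higher and 4 lower (median 0.13), beside 28.4% and 30.7% of all genes, where the complex I subunits had 0 higher and 3 lower. No test set the 2 lists against each other.

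Regulators known to govern mitochondrial genes followed several courses. Of 12 tested, 9 were called higher and 2 lower in FSK4h, 1 higher and 7 lower in FSK1D, 7 higher and 2 lower in FSK3D, and 8 higher and 1 lower in Rosi3D. Among all genes 28.4% were higher and 30.7% lower in FSK4h, and 19.5% and 20.7% in FSK1D. In FSK3D these shares were 25.9% and 27.0%, and in Rosi3D 28.6% and 32.0%. Ppargc1a, the coactivator PGC-1α, averaged 31.6 ± 0.417 CPM in vehicle, 73.8 ± 11.5 in FSK4h, 18.3 ± 1.46 in FSK1D and 49.3 ± 1.57 in FSK3D, and 102 ± 4.95 CPM in Rosi3D (SD, n = 3). It was called in each group against vehicle, lower in FSK1D and higher in the others. Esrra, the nuclear receptor ERRα that PGC-1α activates, averaged 39.1 ± 2.93 CPM in vehicle, 37.5 ± 3.10 in FSK4h, 32.2 ± 1.36 in FSK1D and 58.3 ± 6.41 in FSK3D, and 102 ± 5.75 CPM in Rosi3D. Its log2 differences were 0.58 ± 0.074 in FSK3D and 1.39 ± 0.072 in Rosi3D. Nrf1, nuclear respiratory factor 1, a regulator of respiratory subunit genes, averaged 49.1 ± 1.20 CPM in vehicle, 69.1 ± 1.54 in FSK4h, 45.7 ± 2.19 in FSK1D and 41.7 ± 3.26 in FSK3D, and 51.5 ± 1.30 CPM in Rosi3D. It was called higher at 4 h and lower in FSK3D (-0.24 ± 0.061). The part of any of these regulators in the levels of the members was not tested.

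Because members rose together at 3 days, their promoters were searched for sites of such regulators. RefSeq promoter windows (GRCm38.p6, 250 bases before to 50 after each start) were at hand for 38 of the 44 members. The NRF1 site GCGCA-any base-GCGC, searched on both strands like the other motifs, was found in 8 of them (21.1%), beside 5.19% of the windows of all 27025 genes and 10.8% of those of the 10707 genes with at least 100 reads. These were Ndufa5, Ndufa6, Ndufa8, Ndufa11, Ndufaf4, Ndufaf5, Ndufb4 and Ndufs6. In FSK4h against vehicle Ndufaf4 was called higher and Ndufa6 lower, and the others were not called in the main fit. Ndufa8 was called higher there under other settings, as given above. The cAMP response element TGACGTCA was found in 3 (7.89%, beside 2.03% and 3.46%), the GABP site CCGGAAGT in 1 (2.63%, beside 4.31% and 8.47%) and the ERR element TCAAGGTCA in none of the 38 (beside 0.466% and 0.308%). The letters of these motifs do not overlap each other in the windows shown. Of the 3 members with a cAMP response element, Ndufa10, Ndufa11 and Ndufb2, none was called in FSK4h with all libraries, and Ndufb2 was called there without FSK4h S6 (log2 0.25, adjusted p = 0.0360). A match is a description of the letters only.

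Promoters of 3 members are shown, each as the 250 bases before the RefSeq start, with the matches in capitals: Ndufaf4, the member with the larger of the 2 called rises at 4 h, with an NRF1 site that begins 113 bases before the start; Ndufa11, a proximal membrane subunit with a cAMP response element at 158 and an NRF1 site at 60 bases before it; and Ndufb2, a distal membrane subunit with a cAMP response element at 14 bases before it. Ndufaf4 lies at chr4:24897833-24898082 (plus strand), Ndufa11 at chr17:56717512-56717761 (plus strand) and Ndufb2 at chr6:39592315-39592564 (plus strand), as the stretches printed.
Ndufaf4: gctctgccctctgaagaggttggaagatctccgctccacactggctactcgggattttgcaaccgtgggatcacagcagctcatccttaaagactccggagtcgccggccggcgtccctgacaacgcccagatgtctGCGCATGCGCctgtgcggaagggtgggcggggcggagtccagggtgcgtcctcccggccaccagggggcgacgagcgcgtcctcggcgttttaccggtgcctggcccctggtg
Ndufa11: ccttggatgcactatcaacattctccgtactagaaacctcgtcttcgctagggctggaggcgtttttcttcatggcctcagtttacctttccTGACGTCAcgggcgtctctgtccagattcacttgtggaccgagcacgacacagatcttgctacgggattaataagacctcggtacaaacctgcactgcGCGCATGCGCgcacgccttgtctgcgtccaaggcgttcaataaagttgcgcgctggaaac
Ndufb2: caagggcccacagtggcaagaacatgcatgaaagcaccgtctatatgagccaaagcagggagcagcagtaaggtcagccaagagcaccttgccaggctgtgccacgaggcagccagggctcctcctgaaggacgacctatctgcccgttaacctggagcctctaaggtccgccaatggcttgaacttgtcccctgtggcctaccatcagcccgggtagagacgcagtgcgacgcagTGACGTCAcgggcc
Ndufa11 differed from vehicle by log2 0.37 ± 0.071 in FSK3D and 0.83 ± 0.069 in Rosi3D, and Ndufb2 by 0.42 ± 0.096 and 0.81 ± 0.093, both within the range of the other subunits.

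The genes are scattered: the core subunits described above lie on 5 chromosomes, in GRCm38 coordinates Ndufs1 at chr1:63143596-63176833, Ndufs3 at chr2:90894634-90904827, Ndufs7 at chr10:80249121-80256794, Ndufv2 at chr17:66078638-66101559, Ndufs8 at chr19:3908863-3912774 and Ndufv1 at chr19:4007384-4012806. Some counts are uncertain, since the handling of strand and of reads that match several genes is not given in the sources used here. Exons of Ndufb5 overlap those of Mrpl47 by 616 bases, Ndufs1 those of Ino80dos by 489, Ndufa13 those of Tssk6 by 375 and Ndufa4l2 those of Shmt2 by 32. Of all 50-base words of their transcripts, Ndufs3 shared 39.7% with other genes or pseudogenes, Ndufb4 37.0%, Ndufb6 31.6%, Ndufa13 28.5%, Ndufa12 26.2% and Ndufb9 23.4%, so their levels are less certain than those of Ndufa10 or Ndufa1, which shared 0%. Words were compared on both strands, and those of overlapping exons count as shared, such as the overlap of Ndufa13 with Tssk6. Exons of Ndufb6 overlap those of Smim27 by 257 bases and Ndufb9 those of Gm49356 by 201. Neither partner is in the count table.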

How the data were processed

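RNA-seq of MAP adipocytes was analysed from the authors' deposited table of whole-number read counts per gene, which are not normalized. Per the labels' protocols, total RNA was depleted of ribosomal RNA. Per the submitters' processing notes, fastp, STAR and featureCounts were used with GRCm38 (mm10); their versions, the annotation and the strand setting were not given in the sources used here. Low counts were mostly even, as when both mates of a pair are counted, so halved counts were tried.

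All 15 libraries (5 groups of 3) entered 1 fit. Genes were filtered with filterByExpr, which left 14421 with all 44 members, and scaled by the trimmed mean of M values (TMM). Groups were compared in R 4.3.3 with edgeR 4.0.16 (robust quasi-likelihood test, 10 residual degrees of freedom, common biological coefficient of variation 5.97%), with two-sided p-values adjusted over all tested genes by Benjamini-Hochberg. Calls are at an adjusted p under 0.05. The SE of a log2 fold change is its size over the square root of F. The fit was run on simulated counts in which few genes changed, and in FSK3D alone, unlike the wide changes in these data. That run cannot test the scaling of these data or what the libraries of a group represent. Columns carry running library numbers S1 to S15 and were used as unnumbered libraries of their group.

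Library values were printed for core subunits, assembly factors, Ndufa4, Ndufa4l2 and the up to 3 called members that were highest and lowest by log2 fold change, on each side of 0, in each comparison with vehicle and in FSK3D against Rosi3D; those of Ndufa8, Ndufa13, Ndufab1, Ndufb4 and Ndufb7 were added after their values were seen. Members, lists and motifs were chosen with earlier results of these data known. Alternatives were other scalings, filters, DESeq2 1.42.0, fits of the compared groups alone, halved or thinned counts and leaving out each library. Positions came from GENCODE vM21 and promoters from RefSeq. The values of 1 member are not reported here; it is included in the counts and medians.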

Additional observations from a re-analysis of the deposited data

Results flagged for a closer look

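Members called in opposite directions against vehicle at different forskolin times were singled out where the times also differed directly (edgeR). The direct test of FSK1D against FSK4h gave Ndufaf3 a log2 difference of 0.75 ± 0.12 (adjusted p = 1.74e-06). FSK3D against FSK4h gave Ndufaf3 1.04, Ndufa6 0.92, Ndufs7 0.59 and Ndufaf7 0.56. FSK3D against FSK1D gave Ndufb10 0.67, Ndufs7 0.62, Ndufs4 0.51 and Ndufa7 0.50. In each pair the later time was the higher one. By calls against vehicle alone, 2 members were lower at 4 h, not called at 1 day and higher at 3 days, beside 4.29% of all genes. Lower at 4 h and 1 day and higher at 3 days was 1 member, beside 1.96%. Lower at 4 h and higher at both later times was 1, beside 1.16%. Not called at 4 h, lower at 1 day and higher at 3 days were 3, beside 0.881%. As given above, the early calls against vehicle rest on small differences, and each of those of Ndufaf3 and Ndufaf7 at 4 h, of Ndufa6 at 4 h, of Ndufs7 at 4 h and 1 day, and of Ndufb10, Ndufs4 and Ndufa7 at 1 day was lost when 1 of several libraries was left out. Some of these calls were also lost under other processing, as given above. Groups of 3 libraries were not screened for single outlying values.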

How the results depend on the processing

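The counts of members called in FSK3D against vehicle, Rosi3D against vehicle and FSK3D against FSK1D, and of members lower in FSK3D than in Rosi3D, stayed within 1.5 times the main count under every alternative run. The few early calls did not. In FSK4h against vehicle, members called higher numbered 7 with RLE factors, 5 with DESeq2, 5 with the 2 groups alone, 1 with library size alone and 1 to 5 with a library left out, and members called lower 24 with library size alone, 3 with DESeq2, 2 after thinning and 1 to 5 with a library left out. The median with library size alone was -0.20. Of all genes in FSK4h against vehicle, 4329 were higher and 4167 lower with RLE factors, and 4320 and 4155 with DESeq2 (of 14421). The 2 groups alone gave 4270 and 4298 of 13868 genes, and thinning 3876 and 3898 of 13547. With a library left out, 3938 to 4024 genes were higher and 3921 to 4001 lower. In FSK1D against vehicle, 4 members were called higher with RLE factors, no filter, DESeq2, halved or thinned counts. The 2 groups alone gave 5, and leaving a library out 2 to 4. Called lower were 2 members with RLE factors or DESeq2 and 0 to 5 with a library left out. Of all genes, 3060 were higher there with RLE factors or DESeq2, and 2731 and 2735 lower (of 14421). No filter gave 2970 higher of 19837, the 2 groups alone 2962 of 13841, halved counts 2978 of 13458 and thinning 2701 of 13547. With a library left out, 2647 to 2744 genes were higher and 2428 to 2578 lower. In FSK3D against Rosi3D, 1 member (Ndufa4l2) was called higher with the 2 groups alone, and 0 to 1 with a library left out. Of all genes, 3105 of 13751 were higher there with the 2 groups alone, and 2841 to 3076 with a library left out. In FSK1D against FSK4h, library size alone gave 17 higher and 1 lower with a median of 0.12 (5974 and 2709 of all 14421 genes). Leaving out a library gave 2 to 6 members higher and 2 to 8 lower, beside 3803 to 3846 and 3849 to 3923 of all genes. The members' medians were then -0.0768 to -0.0070. In FSK3D against FSK1D those medians were 0.42 to 0.49. In FSK3D against FSK4h, where 37 were called higher and 2 lower and 68.5% of all genes were called, the median of 0.45 became 0.43 with RLE factors, 0.63 with library size alone, 0.44 with DESeq2, 0.43 after thinning and 0.42 to 0.47 with a library left out, and 0 were lower with library size alone and 1 to 2 with a library left out. Library size alone also turned the sign in FSK4h against vehicle of Ndufa10 (-0.18), Ndufa11 (-0.17), Ndufv1 (-0.14), Ndufs3 (-0.19), Ndufa4 (-0.086) and Ndufa1 (-0.19), and in FSK1D against FSK4h of Ndufb9 (0.13) and Ndufa9 (0.0025). That scale shifted the median of all genes to -0.23 in FSK4h against vehicle, and to 0.17 and 0.20 in FSK1D and FSK3D against FSK4h. Thinning also ended the calls of Ndufs4 (adjusted p = 0.0566) and Ndufa8 (0.0646) in FSK3D, of Ndufaf2 (0.0568) in Rosi3D, and of Ndufb4 (0.211) and Ndufaf3 (0.174) in FSK3D against Rosi3D, where fewer counts were used. For all other settings the cause was not tested. No paired analysis was possible because the columns carry running library numbers and not the replicate numbers of the labels. Depth limits Ndufa4l2 most, with 24 counts over the vehicle libraries.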
